A study of Mus musculus with 6 samples.

Results

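Deacetylases and other chromatin regulators were read on 6 single-colour arrays of thioglycollate-elicited macrophages, cells that a sterile irritant draws into a mouse's peritoneal cavity. They were chosen by name: every probe whose gene symbol starts with Hdac, Sirt, Kdm, Kat, Kmt, Smarc, Chd and a digit, Brd, Dnmt, Ezh, Setd, Hmgb, Hmgn, Cbx, Ncor or Sin3. The rule found 75 of 10076 probes, which stand for 73 of 8841 named genes. It found 0 probes for Ncor. It also took in 2 katanin probes, Katna1 and Katnbl1, whose symbols begin with Kat but whose proteins belong to the microtubule-severing family and not to chromatin; they are kept in the counts and named where they enter.

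Mice were C57BL/6 females, 6 weeks old. Arrays were made for TSA, TSA + LPS, TSA + GW3965 + LPS, LPS, GW3965 + LPS and No treatment cells, with 1 array per group and no replicate. TSA is trichostatin A, an inhibitor of zinc-dependent deacetylases. LPS is bacterial lipopolysaccharide, which macrophages sense through a Toll-like receptor, and GW3965 activates liver X receptors. The labels give neither dose nor time, and they do not say how many animals were pooled. Nothing in them says that arrays came from separate cultures, so a p-value reflects no more than how these arrays scatter, which may be technical.

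Histone acetyltransferases place acetyl groups on histone tails and deacetylases take them off, and bromodomain proteins such as Brd2 bind the acetylated tails. Methyltransferases, demethylases and DNA methyltransferases write and erase a second layer of marks, while the ATPases and subunits named Smarc and Chd slide or evict nucleosomes. In macrophages these enzymes act at cytokine and interferon-response genes, where deacetylases in corepressor complexes keep promoters quiet until a stimulus arrives. TSA blocks zinc-dependent Hdac enzymes, though not necessarily each of them alike, and leaves the NAD-dependent sirtuins active. What is measured here is the mRNA of the enzymes, not their activity.

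Values are intensities that had been scaled before deposit, so that each array's median lay between 0.981 and 0.987 units. A reading below an array's 25th percentile, its floor of 0.198 to 0.245 units, was set to that floor. A gene entered the fit when it reached the median on at least 1 array. Of the 73 genes 50 did so, or 68.5%, against 57.5% of all named genes, and 39 of them reached the median on all 6 arrays. Another 23 stayed below the median throughout, and 3 of these, Brdt, Chd1l and Smarca1, lay under the floor on every array. Intensities of different probes depend on the probe, so levels are compared only within a probe. LPS acted on these cells: Il6 read 52.9 and 180 with TSA + LPS and LPS, against 0.447 with TSA and 0.413 with No treatment. All 15 macrophage markers on the array reached the median on some array. Their summed intensity, largely that of Lyz2, Ctsd, Tyrobp, Fcer1g and with LPS also Cd14, was 1900 to 2760 units. Cd14 itself rose with LPS and fell with TSA. It read 351 with LPS, 339 with GW3965 + LPS, 174 with TSA + LPS and 167 with TSA + GW3965 + LPS. With No treatment and TSA it read 29.2 and 21.6. Sums of different probes are not comparable between lists and are read only across arrays. For T and NK cells, B cells, mast cells and eosinophils, and fibroblasts and mesothelium the sums of 7 to 12 markers lay between 10.4 and 46.4 units, and that of 10 neutrophil markers between 25.2 and 84 units.

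**Figure D1:**
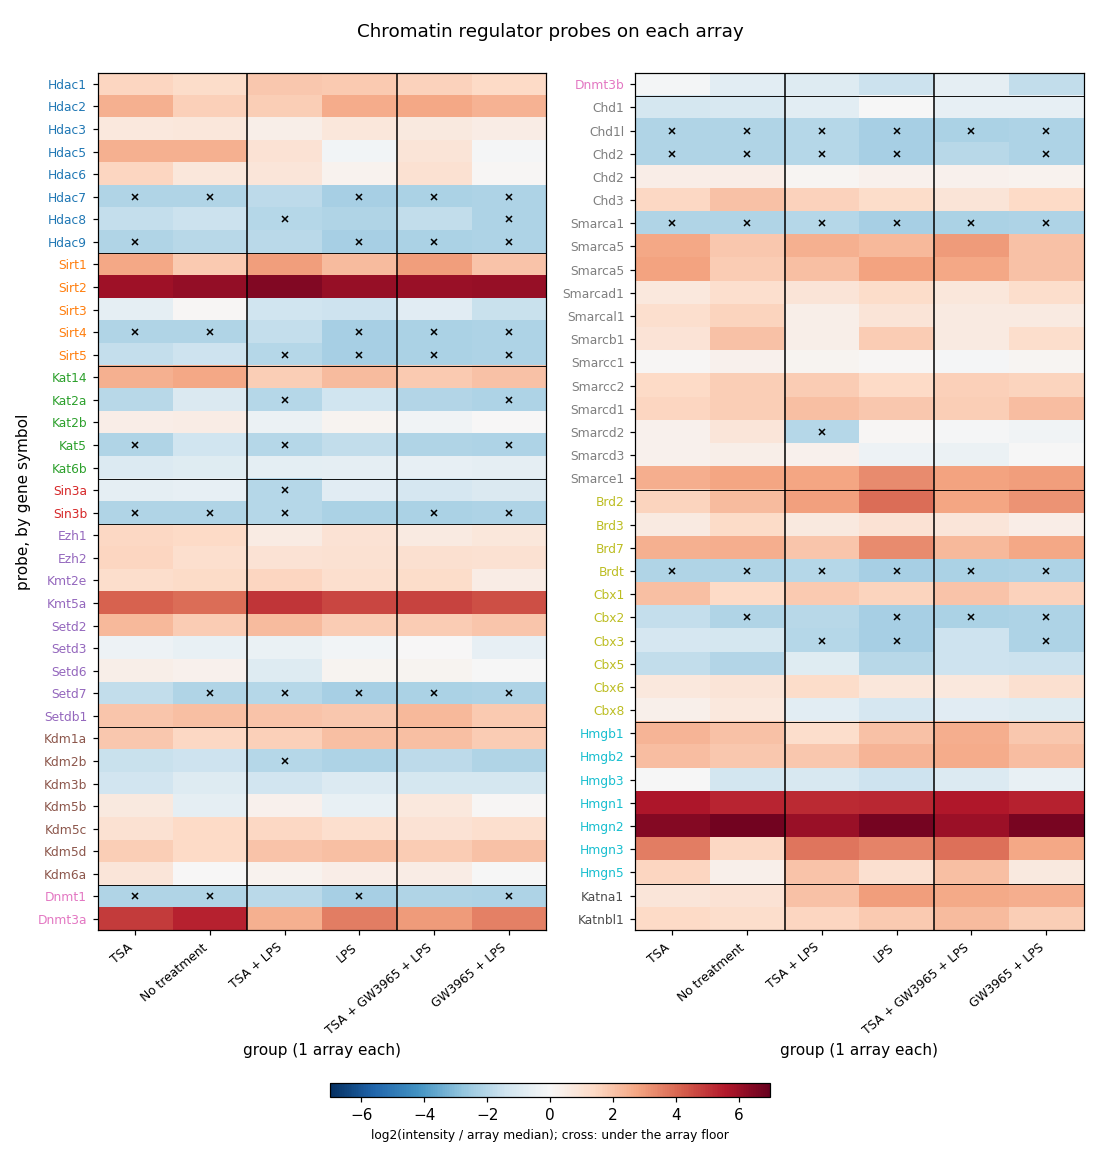
Each of the 75 probes on each array, as log2 of intensity over that array's median, with arrays in pairs that differ by TSA, genes coloured by role, and crosses where a reading lay under the array's floor. Hmgn2, Hmgn1 and Sirt2 stay far above the median on all 6 arrays, while Hdac7, Hdac9, Sirt4, Sirt5, Sin3b and Dnmt1 lie at or near the floor.

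The 250 bases before the RefSeq start (build GRCm38.p6) are shown for 5 genes that passed the test for TSA and have a single listed start, so that a reader can see which elements lie there. The Hdac5 window is chr11:102230173-102230422, that of Hdac6 chrX:7947890-7948139, that of Sirt1 chr10:63339036-63339285, that of Hmgn5 chrX:109013381-109013630 and that of Smarcb1 chr10:75921615-75921864, all on the minus strand. Capitals mark matches on either strand to the GC box GGGCGG, the CCAAT box CCAAT and the E-box CACGTG.
Hdac5: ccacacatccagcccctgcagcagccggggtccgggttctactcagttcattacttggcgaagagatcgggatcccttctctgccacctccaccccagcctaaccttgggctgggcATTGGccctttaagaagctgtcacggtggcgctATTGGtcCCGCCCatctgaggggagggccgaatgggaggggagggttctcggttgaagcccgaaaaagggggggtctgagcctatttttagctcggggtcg
Hdac6: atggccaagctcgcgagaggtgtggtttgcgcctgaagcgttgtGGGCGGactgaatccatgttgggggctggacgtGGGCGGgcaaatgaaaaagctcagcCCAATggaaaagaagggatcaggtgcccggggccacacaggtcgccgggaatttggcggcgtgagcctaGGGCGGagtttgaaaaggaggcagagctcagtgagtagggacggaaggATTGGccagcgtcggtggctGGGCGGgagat
Sirt1: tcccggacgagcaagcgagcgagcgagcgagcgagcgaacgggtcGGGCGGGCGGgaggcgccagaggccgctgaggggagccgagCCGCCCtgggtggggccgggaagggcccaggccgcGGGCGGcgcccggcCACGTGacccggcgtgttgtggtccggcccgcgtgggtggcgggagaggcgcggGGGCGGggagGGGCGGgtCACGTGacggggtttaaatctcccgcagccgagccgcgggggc
Hmgn5: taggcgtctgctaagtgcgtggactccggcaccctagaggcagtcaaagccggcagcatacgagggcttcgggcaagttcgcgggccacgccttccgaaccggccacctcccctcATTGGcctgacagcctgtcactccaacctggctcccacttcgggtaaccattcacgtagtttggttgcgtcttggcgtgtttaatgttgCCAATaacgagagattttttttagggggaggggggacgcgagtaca
Smarcb1: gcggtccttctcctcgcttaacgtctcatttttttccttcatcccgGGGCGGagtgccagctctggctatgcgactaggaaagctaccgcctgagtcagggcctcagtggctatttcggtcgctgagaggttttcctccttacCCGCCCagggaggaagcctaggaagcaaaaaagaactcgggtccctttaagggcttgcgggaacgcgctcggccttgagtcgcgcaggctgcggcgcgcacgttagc

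Hdac6 held 4 GC boxes and 2 CCAAT boxes, Hdac5 held 1 and 2, and Sirt1 held 6 GC boxes, some of them overlapping, and 2 E-boxes. Hmgn5 held 2 CCAAT boxes and no GC box, and Smarcb1, the gene that fell, held 2 GC boxes. Of 52 such windows, listed for 41 of the fitted genes, 71.2% had a GC box, 38.5% a CCAAT box and 13.5% an E-box. Over all 32851 windows in the RefSeq table these shares were 32.7%, 33.8% and 6.02%. The sets are unlike, since the fitted genes had passed a level filter and the RefSeq windows had not, and GC content was not matched. GC content was 58.0% to 79.2% in the 5 windows shown, beside a median of 52.4% over all windows. No motifs of different kinds overlapped in the 5 windows. Windows were found for 61 of the 73 genes; Hmgn3 had none.

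TSA moved a few chromatin genes in both directions and left most of them without a call. Sirt1, Hdac5, Hdac6, Kdm5b, Smarca5, Hmgn3 and Hmgn5 rose, and Brd2, Dnmt3a and Smarcb1 fell, out of 50 genes. The fit was an additive model of LPS, GW3965 and TSA across 5080 genes with limma, and rose or fell means a two-sided Benjamini-Hochberg adjusted p under 0.05. The TSA term averages 3 pairs of arrays, namely TSA against No treatment, TSA + LPS against LPS, and TSA + GW3965 + LPS against GW3965 + LPS. Of the 50 genes 14% rose and 6% fell, against 11% and 7.54% of all genes fitted. Together that is 20% against 18.5%, so the share of chromatin genes with a call was close to that of genes at large. The median effect was 0.039 on the log2 scale and 0.014 over all genes, with members between -1.04 and 1.2. The median size of an effect regardless of sign was 0.23 for chromatin genes and 0.31 for all genes.

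Among 45 chromatin genes measured in every TSA pair, Kdm5b, Hdac6, Hmgn5 and Sirt1 were at least 1.5-fold higher in all 3 pairs, or 8.89%, against 5.84% of 4400 genes. Smarcb1 alone was at least 1.5-fold lower in all 3, or 2.22% against 2.05%. Neutrophil markers also differed between the same arrays, with summed intensities of 39, 84 and 75.2 units in TSA, TSA + LPS and TSA + GW3965 + LPS, against 25.2, 53.1 and 53.3 units in No treatment, LPS and GW3965 + LPS. Most of each sum was S100a8, which read 31.8, 78.8 and 71.2 with TSA, against 22, 47.2 and 49.2 without it. Of the 5 fitted neutrophil markers Prtn3 and S100a8 rose with TSA, Csf3r fell, and Camp and Ltf did not pass. Their part in the chromatin values was not tested. In RNA of a mixed sample, fewer cells of a type and less RNA per cell cannot be told apart.

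**Figure D2:**
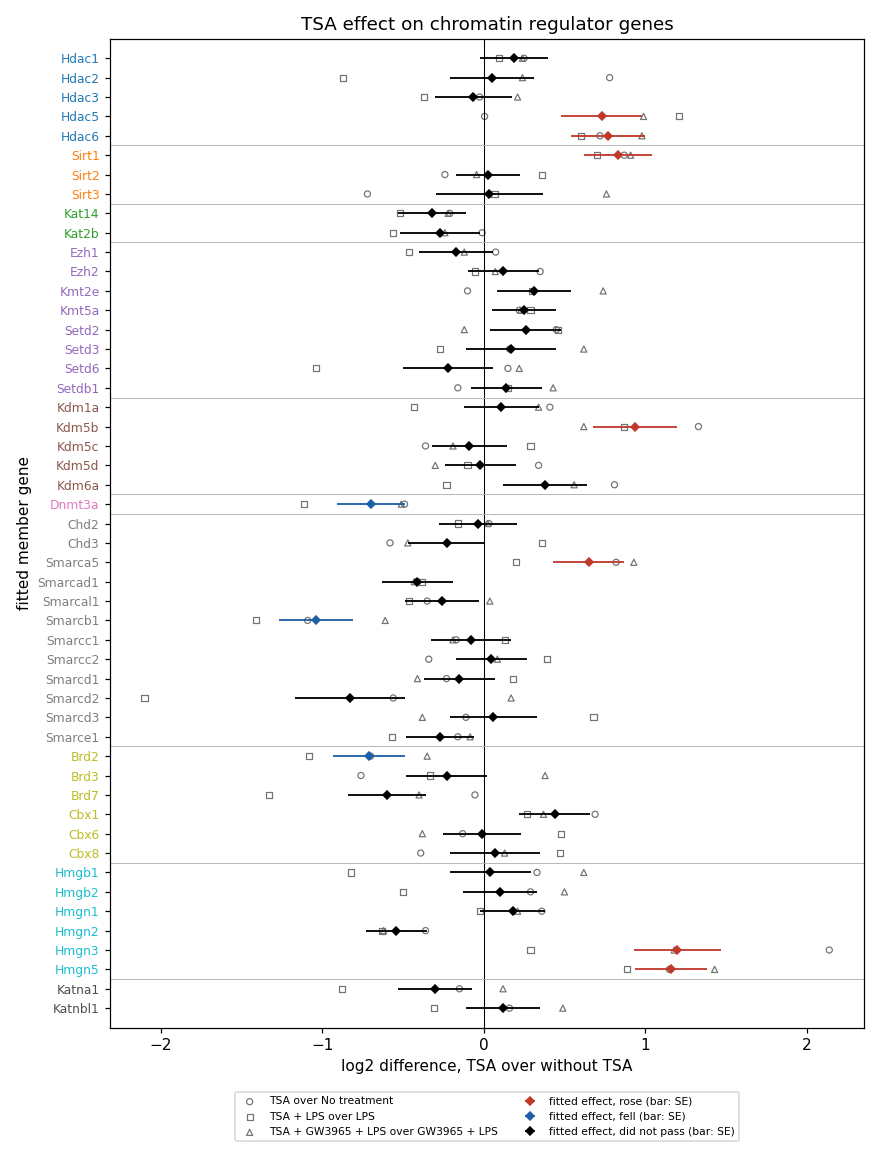
TSA effect on each of the 50 fitted genes, as a log2 difference with its standard error, beside the difference in each of 3 pairs of arrays as open symbols. The 7 genes that rose are in red and the 3 that fell in blue; the pair of TSA + LPS and LPS, drawn as squares, lies far from the other pairs for Smarcd2, Hdac2, Setd6 and Hmgb1.

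Among the zinc-dependent deacetylases, Hdac5 and Hdac6 rose with TSA and the class I genes did not pass. Hdac6, a cytoplasmic enzyme that deacetylates tubulin, read 2.77, 1.74 and 2.06 in TSA, TSA + LPS and TSA + GW3965 + LPS. Without the inhibitor it read 1.68, 1.15 and 1.05 in No treatment, LPS and GW3965 + LPS. Every array with TSA stood above every array without it, and Hdac6 rose by 0.77 on the log2 scale (SE 0.23, limma adjusted p = 0.0275, higher in 3 of 3 pairs). The call was lost without the No treatment pair (limma adjusted p = 0.124) and without the GW3965 + LPS pair (limma adjusted p = 0.169).

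Hdac5, a class IIa enzyme that shuttles between nucleus and cytoplasm, followed LPS more than TSA. It read 5.47 with TSA and 5.44 with No treatment, which are level. Once LPS was present it read 1.95 with TSA + LPS against 0.844 with LPS, and 1.87 with TSA + GW3965 + LPS against 0.942 with GW3965 + LPS. These are 2.31-fold and 1.98-fold higher with the inhibitor. The mean TSA effect was 0.73 (SE 0.25, limma adjusted p = 0.0478), just inside the threshold, and limma's adjusted p ran from 0.02 to 0.199 over 11 alternative settings, 6 of which lost the call. Without the LPS pair it was 0.133, and without the GW3965 + LPS pair 0.199. In TSA-free cells LPS left Hdac5 6.45-fold lower, and in cells given TSA 2.8-fold lower; whether these differ was not tested. Hdac5 fell with LPS by 2.09 (SE 0.31, limma adjusted p = 3.89e-05, lower in 2 of 2 pairs).

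None of the 3 fitted class I genes passed. Hdac1, a catalytic subunit of several nuclear corepressor complexes, read 2.84, 3.67 and 3.07 with TSA in the order above, against 2.39, 3.44 and 2.59 without it. Its differences in the 3 pairs, 0.25, 0.093 and 0.24, share a sign. The fitted effect over these pairs was 0.19 (SE 0.21, limma adjusted p = 0.581). Hdac3, the enzyme of the nuclear receptor corepressor complex, read 1.31 to 1.66 with TSA and 1.40 to 1.69 without it. Hdac2, close kin of Hdac1, read 5.45, 3.25 and 6.37 with TSA, against 3.17, 5.93 and 5.40 without it. Its arrays overlap and its pairs disagree in sign: it was 1.72-fold higher in TSA than in No treatment and 1.82-fold lower in TSA + LPS than in LPS. Hdac7, Hdac8 and Hdac9 were below the median on all 6 arrays, with highest readings of 0.281, 0.343 and 0.27, and did not enter the fit.

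Sirt1, a sirtuin that deacetylates transcription factors including NF-kB and p53, rose with TSA. It read 6.50, 7.39 and 7.45 in TSA, TSA + LPS and TSA + GW3965 + LPS, against 3.55, 4.56 and 3.96 in No treatment, LPS and GW3965 + LPS. No array with TSA overlapped one without, and the folds of 1.83, 1.62 and 1.88 were of similar size in the 3 backgrounds. Sirt1 rose by 0.83 (SE 0.21, limma adjusted p = 0.0109, higher in 3 of 3 pairs). Without the No treatment pair limma's adjusted p was 0.0504, and without the GW3965 + LPS pair 0.0866. LPS made little difference to it, with an effect of 0.27 that did not pass.

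The other sirtuins held no call. Sirt2, a mainly cytoplasmic tubulin deacetylase, read 59.5, 87.3 and 65.1 with TSA, against 70.3, 67.9 and 67.1 without it, which overlap. Sirt3, the main mitochondrial deacetylase, read 0.627, 0.376 and 0.567 with TSA, against 1.04, 0.359 and 0.334 without it. Only the No treatment array reached the median, and the LPS effect of -1.13 (SE 0.41) had a limma adjusted p of 0.0584, and 0.0393 without the GW3965 + LPS pair. Sirt4 and Sirt5 stayed below the median everywhere. Sirt4 lay under the floor on 5 arrays and Sirt5 on 4.

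Acetyltransferases, the enzymes opposed to the deacetylases, gave no call in either direction. Of 5 genes 2 were fitted. Kat14, a subunit of the ATAC coactivator complex, read 5.62, 3.20 and 3.53 with TSA, against 6.50, 4.59 and 4.12 without it; it was lower in 3 of 3 pairs, with an effect of -0.32 (SE 0.21, limma adjusted p = 0.325). Kat2b, also known as PCAF, read 1.38, 0.747 and 0.832 with TSA, against 1.39, 1.10 and 0.982 without it. Kat2a, Kat5 and Kat6b, which encode GCN5, Tip60 and MORF, had highest readings of 0.48, 0.38 and 0.67. The Sin3 scaffolds, which hold Hdac1 and Hdac2 in a corepressor complex, were likewise below the median: Sin3a read 0.193 to 0.669 and Sin3b 0.0627 to 0.214 units.

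None of the 8 fitted methyltransferase genes, grouped by the symbols Ezh, Kmt and Setd, was called for TSA by limma. Their effects ran from -0.22 to 0.31. Ezh2, the catalytic subunit of a polycomb repressive complex that methylates histone H3, read 2.84, 1.96 and 2.13 with TSA, against 2.22, 2.04 and 2.03 without it. Setdb1, which methylates histone H3 to silence repeats, read 3.83, 3.95 and 4.76 with TSA, against 4.28, 3.56 and 3.53 without it. Kmt5a, which adds a methyl group to histone H4, was the group's one gene with an LPS call. It read 25.5 with LPS against 14.8 with No treatment, and 31.2 with TSA + LPS against 17.2 with TSA. It rose with LPS by 0.82 (SE 0.25, limma adjusted p = 0.0228, higher in 2 of 2 pairs), by 1.72-fold and 1.82-fold. The Kmt5a call was lost after quantile normalization (effect 0.58, limma adjusted p = 0.106), after cyclic loess (0.68, limma adjusted p = 0.056) and without the GW3965 + LPS pair (limma adjusted p = 0.0663).

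Kdm5b, a demethylase that strips methyl groups from lysine 4 of histone H3, rose with TSA. It read 1.60, 1.23 and 1.62 in TSA, TSA + LPS and TSA + GW3965 + LPS, against 0.638, 0.675 and 1.05 in No treatment, LPS and GW3965 + LPS. All 3 TSA arrays stood above the median and 2 of the 3 others below it, with no overlap. It rose by 0.94 (SE 0.26, limma adjusted p = 0.017, higher in 3 of 3 pairs), and by 0.74 without the TSA and No treatment pair, where limma's adjusted p was 0.168. The other 4 fitted demethylases did not pass for TSA. Kdm1a, the amine oxidase LSD1, read 3.62, 3.18 and 4.25 with TSA, against 2.73, 4.29 and 3.34 without it. Kdm6a, which removes methyl groups from a polycomb mark, read 1.78, 1.17 and 1.41 with TSA, against 1.01, 1.37 and 0.96 without it.

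Kdm5d lies on the Y chromosome, and the labels call all mice female, yet its probe read 2.60 to 4.16 units and reached the median on all 6 arrays. The probe of its X-linked relative Kdm5c read 1.97 to 2.70 units. Among other Y-linked probes Sry read 0.987 to 1.37, while Uty, Eif2s3y, Zfy1 and Zfy2 stayed below the median on every array. Whether the Kdm5d probe reads its own transcript was not tested. Of the fitted chromatin genes 11 reached the median on only some arrays.

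Dnmt3a, a DNA methyltransferase that sets new methylation, fell with both agents. It read 29.7 with TSA alone and 41.7 with No treatment, the highest of the 6 arrays. With LPS it read 11.9 against 41.7 with No treatment, and with TSA + LPS 5.50 against 29.7 with TSA, 3.51-fold and 5.4-fold lower. TSA + GW3965 + LPS gave 7.89 against 11.3 with GW3965 + LPS. The LPS effect was -2.12 (SE 0.26, limma adjusted p = 4.87e-06), the lowest of the 50 genes. With TSA it fell by 0.70 (SE 0.21, limma adjusted p = 0.0292, lower in 3 of 3 pairs), although arrays with and without TSA overlap. Limma's adjusted p was 0.135 without the LPS pair and 0.0919 without the GW3965 + LPS pair. Dnmt1, which copies methylation at replication, and Dnmt3b read at most 0.261 and 0.907 units and were not fitted.

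Among nucleosome remodellers 1 of 12 fitted genes rose and 1 fell with TSA. Smarcb1, a core subunit of the SWI/SNF complex, read 1.90, 1.29 and 1.53 in TSA, TSA + LPS and TSA + GW3965 + LPS. Its readings were 4.02, 3.42 and 2.34 in No treatment, LPS and GW3965 + LPS, all of them higher. Smarcb1 fell by 1.04 (SE 0.23, limma adjusted p = 0.005, lower in 3 of 3 pairs), and it fell under all 11 alternative settings.

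Smarca5, the ATPase of ISWI complexes, had a pair of probes that differed. The brighter one read 6.44, 5.55 and 7.65 with TSA, against 3.64, 4.82 and 4 without it, and rose by 0.65 (SE 0.22, limma adjusted p = 0.046). The other read 6.97, 4.17 and 6.51 with TSA, against 3.31, 6.81 and 4.11 without it, so that TSA + LPS was lower than LPS. With the probes averaged Smarca5 did not pass (limma adjusted p = 0.175), nor without the No treatment pair (0.218) or the GW3965 + LPS pair (0.313). The probes of Chd2, a chromodomain remodeller, lay at 1.07 to 1.37 units and at 0.0914 to 0.261 units.

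Smarcd2, a SWI/SNF subunit needed for granulocyte development, fell with LPS by 1.52 (SE 0.42, limma adjusted p = 0.0124). It read 1.05 with LPS and 1.77 with No treatment, and 0.116 with TSA + LPS, under the floor of 0.245, and 1.2 with TSA. That is 1.68-fold lower and at least 4.91-fold lower. With the floor raised to the median its LPS effect was -0.52 and did not pass (limma adjusted p = 0.0954). With TSA + GW3965 + LPS it read 0.948, close to the 0.842 with GW3965 + LPS. Its TSA effect of -0.83 did not pass (limma adjusted p = 0.0942), but had an adjusted p of 0.0057 without the GW3965 + LPS pair. Smarcal1, an enzyme that re-anneals DNA at stalled forks, was 1.59-fold and 1.72-fold lower in the LPS pairs but did not pass (effect -0.73, limma adjusted p = 0.0809). Smarce1, another SWI/SNF subunit, read 5.86, 6.64 and 7.01 with TSA, against 6.55, 9.85 and 7.44 without it, and Chd3, a subunit of the NuRD deacetylase complex, 2.71, 3.04 and 1.87, against 4.04, 2.37 and 2.58; neither passed.

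Of the readers, Brd2 answered both agents in opposite directions. Brd2 is a bromodomain protein of the BET family that binds acetylated histones. It read 15.0 with LPS against 4.65 with No treatment, and 7.07 with TSA + LPS against 2.86 with TSA, 3.22-fold and 2.47-fold higher. The LPS effect was 1.5 (SE 0.27, limma adjusted p = 0.00033). With TSA it fell by 0.71 (SE 0.22, limma adjusted p = 0.0303, lower in 3 of 3 pairs), by 1.63-fold, 2.12-fold and 1.27-fold. Without the No treatment pair limma's adjusted p for TSA was 0.0737, and without the LPS pair 0.108. TSA + LPS at 7.07 still stood above No treatment at 4.65.

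Cbx8, a polycomb protein that binds methylated histone H3, read 0.43 with LPS against 1.63 with No treatment, and 0.595 with TSA + LPS against 1.24 with TSA. It fell with LPS by 1.5 (SE 0.35, limma adjusted p = 0.00372), and every array with LPS was below its median. With the floor raised to the median its LPS effect was -0.54 and did not pass (limma adjusted p = 0.0609). Brd7, a subunit of a SWI/SNF complex, read 5.59, 3.81 and 4.77 with TSA, against 5.80, 9.60 and 6.31 without it, with no overlap. Its effect of -0.60 did not pass (limma adjusted p = 0.0912), though it did without the No treatment pair. Cbx1, a heterochromatin protein, read 4.19, 3.45 and 3.89 with TSA, against 2.60, 2.87 and 3.02 without it, with no overlap, and its effect of 0.44 (SE 0.22) did not pass either. Cbx2, Cbx3 and Cbx5 stayed below the median on every array.

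Of 4 fitted genes for the nucleosome-binding Hmgn proteins, which loosen chromatin, Hmgn3 and Hmgn5 rose with TSA and the other two did not pass. Hmgn5 read 2.83, 3.98 and 4.30 in TSA, TSA + LPS and TSA + GW3965 + LPS, against 1.28, 2.15 and 1.59 in No treatment, LPS and GW3965 + LPS. The arrays did not overlap, and Hmgn5 rose by 1.16 (SE 0.22, limma adjusted p = 0.00159, higher in 3 of 3 pairs), a call kept under all 11 alternative settings. Hmgn3 read 12, 13.1 and 14.4 with TSA, against 2.72, 10.7 and 6.36 without it. It rose by 1.2 (SE 0.27, limma adjusted p = 0.00516), with folds of 4.4, 1.23 and 2.27. Without the No treatment pair the effect was 0.74 and limma's adjusted p 0.057.

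LPS alone also gave high Hmgn3, 3.92-fold over No treatment, whereas TSA + LPS was 1.09-fold over TSA, and it rose with LPS by 1.05 (SE 0.33, limma adjusted p = 0.0298). This call was lost in 3 of 9 alternative settings: quantile normalization (limma adjusted p = 0.0672), a floor raised to the median (0.148) and no intensity trend (0.0501). Hmgn3 read 10.7 to 14.4 units in the 4 arrays with TSA or with LPS alone, 6.36 with GW3965 + LPS and 2.72 with No treatment. Hmgn2 read 83.5, 65.7 and 63.4 with TSA, against 107, 102 and 97.8 without it, with no overlap. It missed the threshold at -0.54 (SE 0.19, limma adjusted p = 0.0568), but fell with TSA after quantile normalization and after cyclic loess. Hmgn1 read 49.9, 37.2 and 47.9 with TSA, against 39, 37.9 and 41.5 without it.

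Hmgb1, a DNA-bending protein that acts as an alarm signal outside the cell, read 5.14, 2.28 and 5.66 with TSA, against 4.10, 4.03 and 3.68 without it. TSA + LPS was the lowest array, and the pairs differed in sign. Hmgb2, its close relative, read 4.40, 3.57 and 6.08 with TSA, against 3.60, 5.03 and 4.31 without it. Neither gene passed for any agent. Of the 50 genes 15, or 30%, read lowest with TSA + LPS, against 19.4% of all 5080 genes. Hdac2 was not among them, reading 3.25 there and 3.17 with No treatment. On the LPS array, the partner of TSA + LPS, 3 of the 50 genes, or 6%, read lowest, against 18.4% of all genes.

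**Figure D3:**
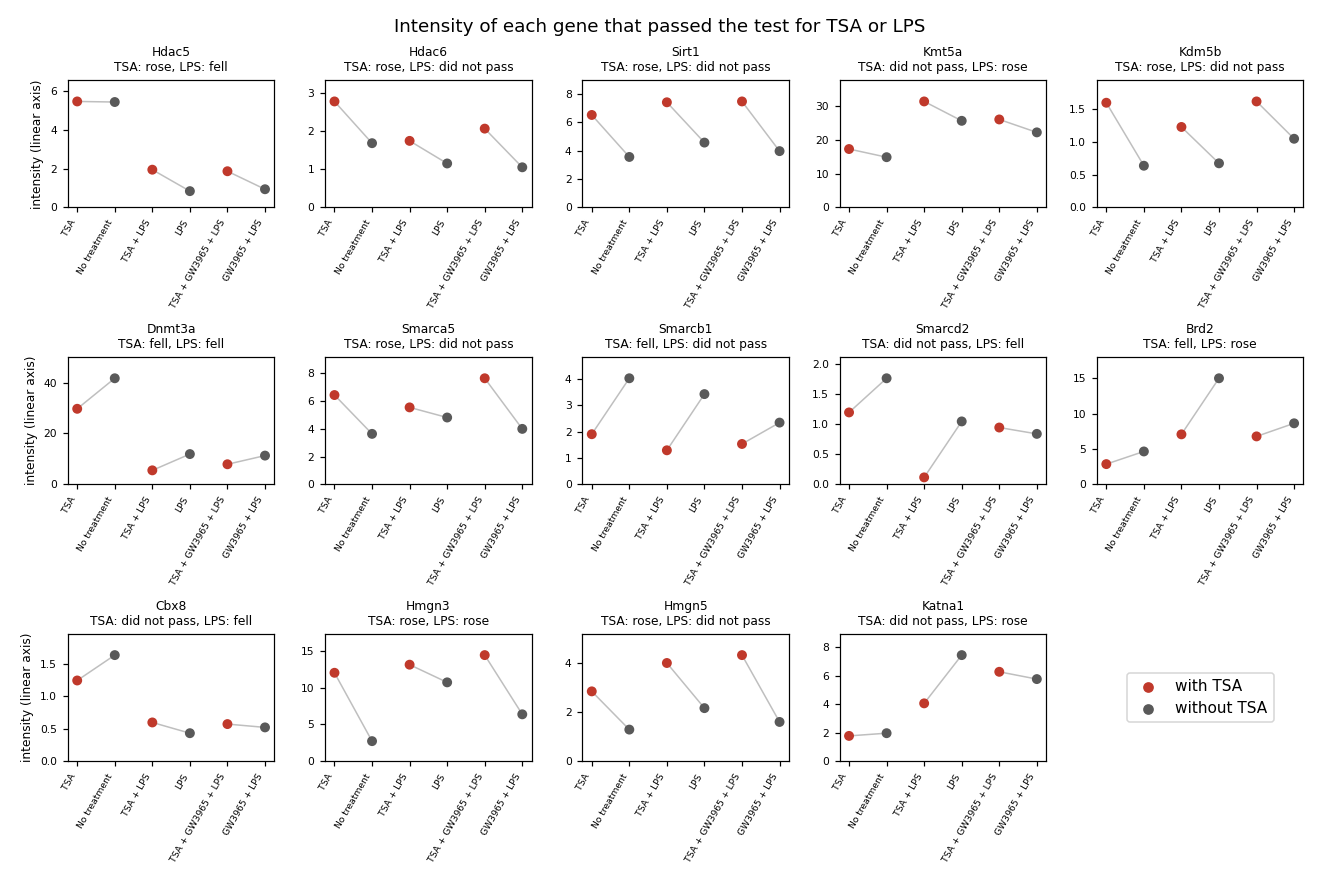
Intensity on each array, on linear axes from 0, of the 14 genes that passed for TSA or LPS, with arrays given TSA in red left of their partner without it. Sirt1, Hmgn3, Hmgn5, Hdac6, Kdm5b and the brighter Smarca5 probe stand higher in each TSA array than in any array without it, and Smarcb1 lower. The share of all genes that separate in this way is not given here. Dnmt3a, Hdac5 and Cbx8 are high only in TSA and No treatment.

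LPS moved 8 of the 50 genes. Brd2, Hmgn3, Kmt5a and the katanin Katna1 rose, and Dnmt3a, Hdac5, Cbx8 and Smarcd2 fell. That is 8% of 50 each way, against 12.3% and 7.11% of 5080 genes, and 16% in all against 19.4%. The median effect was -0.069 for chromatin genes and 0.029 for all. Of 47 genes measured in both LPS pairs, Brd2, Kmt5a and Katna1 were at least 1.5-fold higher in both, or 6.38% against 12.1% of 4530 genes. Dnmt3a, Hdac5, Cbx8, Smarcd2 and Smarcal1 were at least 1.5-fold lower in both, or 10.6% against 7.66%. Katna1 read 7.43 with LPS against 1.96 with No treatment, and 4.05 with TSA + LPS against 1.77 with TSA, an effect of 1.56 (SE 0.28, limma adjusted p = 0.000384).

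**Figure D4:**
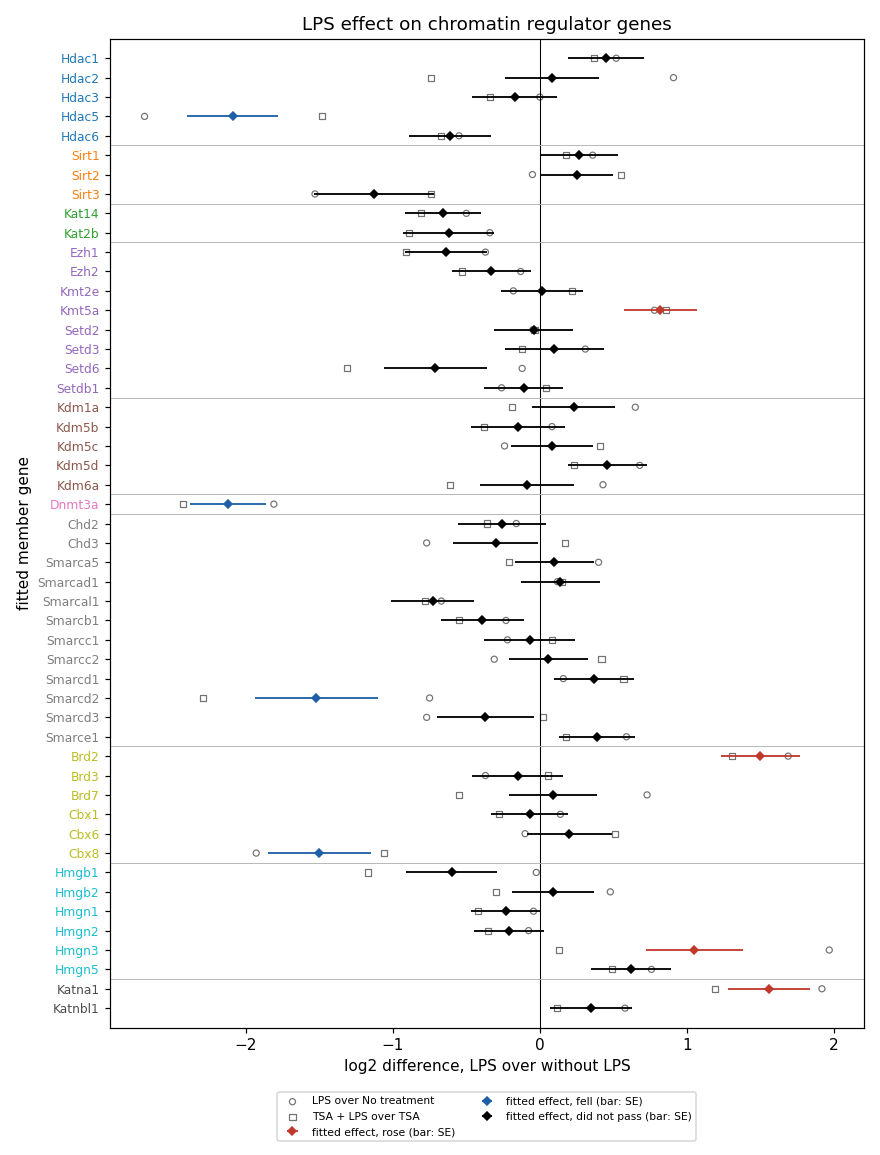
LPS effect on each of the 50 fitted genes, as a log2 difference with its standard error, beside the difference in each of 2 pairs of arrays as open symbols. Dnmt3a, Hdac5, Smarcd2 and Cbx8 lie on the left at -2.12 to -1.5, and Katna1, Brd2, Hmgn3 and Kmt5a on the right at 0.82 to 1.56.

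The TSA and LPS effects share arrays, so they are given side by side and not related to each other. For Brd2 the TSA effect was -0.71 and the LPS effect 1.5. For Hdac5 they were 0.73 and -2.09, for Dnmt3a -0.70 and -2.12, and for Hmgn3 1.2 and 1.05.

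GW3965 on top of LPS changed none of the 50 genes by limma, with 0 also at an unadjusted p under 0.05. Of all 5080 genes 3 rose and 1 fell, which is 0.0591% and 0.0197%, or 0.0787% together, and 140 had an unadjusted p under 0.05. No chromatin gene of 43 was at least 1.5-fold apart in one direction in both GW3965 pairs, against 0.52% of 4425 genes higher and 0.52% lower. The highest effect was 0.82, for Smarcd2. It read 0.948 with TSA + GW3965 + LPS against 0.116 with TSA + LPS, but 0.842 with GW3965 + LPS against 1.05 with LPS.

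Partners of these enzymes outside the naming rule were read from lists of complex subunits, chaperones and other enzymes. Of 201 listed genes 128 were on the array and 92 were fitted. With TSA 7 rose and 10 fell, 18.5% of the 92 and level with the 18.5% of all genes, and with LPS 9 rose and 3 fell, 13% of the 92 against 19.4% of all genes. The counts by list that follow stand beside 11% of all genes that rose and 7.54% that fell with TSA, and each rests on few genes. Corepressor and deacetylase complex subunits numbered 19, of which 4 fell and 1 rose with TSA. Mbd3, a subunit of the NuRD deacetylase complex, read 1.27, 0.767 and 1.32 with TSA, against 3.72, 2.46 and 1.90 without it, and fell by 1.25 (SE 0.26, limma adjusted p = 0.00254). Gps2, a subunit of the nuclear receptor corepressor complex, fell by 1.10, and the corepressors Ctbp1 and Ctbp2 by 0.91 and 0.82. Rcor3, a partner of Kdm1a, rose by 0.70.

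Of 18 other remodelling subunits 3 fell and 0 rose with TSA: Bcl7b by 0.94, Ruvbl1 by 0.76 and Actl6a by 0.75. Bcl7b and Actl6a belong to SWI/SNF complexes, of which other fitted subunits, among them Arid1a, Arid2, Pbrm1, Bcl7a, Bcl7c, Phf10 and Ss18, were not called. Of 12 other histone methyltransferases and COMPASS subunits, the arginine methyltransferases Prmt1 and Prmt3 fell by 0.95 and 0.87. Of 10 other polycomb genes Pcgf6 and Yaf2 rose by 1.03 and 0.72. Of 10 histone chaperones Chaf1b, Anp32a and Asf1a rose by 1.11, 1.09 and 0.97, and Set fell by 0.73. Of 11 other acetyltransferases and their partners Clock rose by 0.66. Among DNA methylation factors, demethylases and other high mobility group genes, 12 in all, none was called for TSA by limma. Of these 12 Jmjd6 and Ubtf had an unadjusted limma p under 0.05, at 0.0251 and 0.00944.

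Other genes of the lists also changed with LPS. Daxx, a histone chaperone of promyelocytic leukaemia bodies, read 50 with LPS against 3.36 with No treatment, and 21.9 with TSA + LPS against 2.89 with TSA, an effect of 3.41 (SE 0.28, limma adjusted p = 1.51e-08). Sap30, a subunit of the Sin3 complex, and Hat1, an acetyltransferase of new histones, rose by 1.82 and 1.45. Gadd45b and Gadd45a, stress-response genes linked to DNA demethylation, rose by 2.18 and fell by 2.05. Of 12 fitted proliferation genes Cdk1 and Stmn1 rose with TSA, by 1.26 and 0.89, and Mki67 rose with LPS by 3.05 while Mcm3 and Stmn1 fell; their part in the chromatin values was not tested.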

How the data were processed

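The deposited table holds intensity values on a linear scale for 10076 probes and 6 arrays, with 1 column named for each sample. Per the labels, 0.5 ug of total RNA was copied to cDNA with an oligo-dT primer and then biotin-labelled by in vitro transcription. Scanner, background correction and scaling are not given in the sources used here; the medians show that the authors' values were scaled. Arrays carry no read depth; having 6 of them limits the precision.

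Genes came from the platform's probe table (8983 probes with 1 symbol), each read from its brightest probe. Arrays were floored at their 25th percentile and log2-transformed. The additive model was fitted with limma 3.58.1 in R 4.3.3 (intensity trend, 2 residual and 16.9 prior degrees of freedom) and tested on simulated data. A floored value enters as the floor. The residual also holds any dependence of one agent on another. Members, lists and tests were chosen with earlier results of these data known.

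Named genes are all that passed, all past 1.5-fold in every pair of an agent, the measured Hdac, Sirt, Sin3 and Dnmt genes, Ezh2, Brd2, Hmgb1, Hmgb2, Kat2a, Kat2b and a few others where read, the brightest of each subfamily, and at most 4 per other list called for TSA; others were chosen after their values were seen. Alternatives covered scaling, floor, level filter, probes, the prior variance and leaving out a pair. Figures used matplotlib 3.10.9 in Python 3.11.15.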

Additional observations from a re-analysis of the deposited data

Results flagged for a closer look

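Hdac2 and Hmgb1, both at or above the median on all 6 arrays, differed by at least 1.5-fold in opposite directions between pairs of arrays for the same agent. For Hdac2 the log2 difference with TSA was 0.78 in TSA over No treatment and -0.87 in TSA + LPS over LPS. Its LPS difference was 0.91 in LPS over No treatment and -0.74 in TSA + LPS over TSA, which reuse the same 4 arrays. For Hmgb1 the difference with TSA was 0.62 in TSA + GW3965 + LPS over GW3965 + LPS and -0.82 in TSA + LPS over LPS. Sirt3, at the median only with No treatment, was 1.65-fold lower in TSA than in No treatment. It was 1.7-fold higher in TSA + GW3965 + LPS than in GW3965 + LPS. The fainter Smarca5 probe was 2.11-fold higher in TSA than in No treatment and 1.63-fold lower in TSA + LPS than in LPS. With 1 array per group these differences between backgrounds were not tested.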

How the results depend on the processing

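The labels give no replicate numbers to pair arrays by; the fit is itself paired for TSA, since its other terms set the 3 backgrounds apart as blocks. Of 7 genes that rose with TSA, 3 did so with a floor raised to the array median. That number was 2 without the No treatment pair and 3 without the GW3965 + LPS pair. Calls were also fewer over all genes, where 557 rose with TSA and 241 did with the raised floor. Without the No treatment pair 377 of all genes rose, and without the GW3965 + LPS pair 334. Of 3 that fell, 1 did with that floor and 1 without the LPS pair. Of all genes 383 fell with TSA, 100 with that floor and 292 without the LPS pair. For LPS, where 4 genes rose and 4 fell, 2 rose after quantile normalization and 2 fell with the raised floor. Over all genes 626 rose and 361 fell with LPS, 543 rose after quantile normalization and 205 fell with the raised floor. With no level filter all 73 genes were fitted and 7 fell with LPS, among them Cbx3, Sirt3 and Sirt5. In that fit 504 of 8841 genes fell with LPS. Quantile normalization moved the median LPS effect of all genes to -0.11, against 0.029. By the size rule 2 genes were lower in all TSA pairs after quantile normalization and after cyclic loess, in place of 1. With 2-fold in place of 1.5-fold 0 were higher and 0 lower in all TSA pairs, and 3 were lower in both LPS pairs, as with the raised floor. The cause was not tested, beyond fewer arrays or other genes entering. Without a pair the LPS and GW3965 terms could not always be separated and were then not fitted. No gene named for its TSA or LPS call changed sign under the alternatives run. Medians of TSA effects ran from -0.029 to 0.06. Hmgn5 and Smarcb1 kept their TSA calls throughout, also with each TSA pair left out in turn. Brd2, Dnmt3a, Hdac5 and Katna1 kept their LPS calls, but neither LPS pair was ever left out. For LPS only the GW3965 + LPS pair was left out, and it does not enter the size of the LPS effect. Without it the effect stayed at 1.5 for Brd2, -2.12 for Dnmt3a and -2.09 for Hdac5, which that run could not move.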

Other observations

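The array with TSA + LPS read low for several chromatin genes beside its GW3965 partner. Setd6, a methyltransferase of the NF-kB subunit RelA, read 1.11 with TSA + GW3965 + LPS against 0.535 with TSA + LPS, 2.08-fold higher, and 0.955 with GW3965 + LPS against 1.10 with LPS. Hmgb1 was 2.49-fold, Hdac2 1.96-fold and Hmgb2 1.7-fold higher with TSA + GW3965 + LPS than with TSA + LPS. None of the 4 passed for GW3965. Other chromatin genes went the other way in that pair, such as Smarcd3 and Chd3, 1.66-fold and 1.63-fold lower with TSA + GW3965 + LPS. The median log2 difference in that pair was 0.15 over the 50 fitted chromatin genes and 0.045 over all genes. Setd6 and Smarcd3 were named after their values were seen.

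Xist, the transcript that coats the inactive X chromosome in female cells, read 0.281 to 0.586 units and stayed below the median on all 6 arrays.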
